A study of Mus musculus with 6 samples.

Results

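Tnf and 9 related cytokine and receptor genes were followed in macrophages sorted from mouse pancreatic tumours. The genes were taken by symbol from a table of 53647 genes, in which each of the 10 symbols had 1 row. They were Tnf, its receptors Tnfrsf1a and Tnfrsf1b, the TNF family ligand Tnfsf9, the interleukins Il6, Il1a and Il10, the interleukin 1 receptor antagonist Il1rn, oncostatin M (Osm) and transforming growth factor beta 1 (Tgfb1). There were 3 libraries of Cxcr4+ and 3 of Cxcr4- macrophages, and each is named here by its group and the number in its label. All came from orthotopic pancreatic ductal adenocarcinoma (PDAC) models in C57BL/6 mice. The groups differ by sorting on Cxcr4, the receptor for the chemokine Cxcl12, although the labels enter this as a genotype. The sources used here give neither the number, age or sex of the mice, nor the tumour line, nor the other sort markers. Whether the libraries are from different mice is not stated either, so the spread behind each p-value is that between these libraries and may be technical.

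Tnf is made as a membrane protein that the protease Adam17 sheds. It binds Tnfrsf1a, which carries a death domain and is found on most cells, and Tnfrsf1b, which lacks that domain and is found mainly on immune and endothelial cells. Tnf, Il6, Il1a and Osm are classed as inflammatory, whereas Il10, Tgfb1 and the antagonist Il1rn restrain inflammation. In macrophages, transcription of Tnf is driven by NF-kappaB after Toll-like receptor signals, and the mRNA is short-lived because Zfp36 and related proteins bind its AU-rich element.

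The libraries held 46444934 to 55740671 estimated counts. Levels are given as FPKM, the fragments per kilobase of transcript per 1e6 fragments, and a log2 fold change is always Cxcr4+ minus Cxcr4-. The mRNA of Cxcr4 itself stood at 9.04 to 9.59 FPKM in Cxcr4+ and 5.97 to 8.56 FPKM in Cxcr4- libraries, which did not overlap, at a log2 fold change of 0.27 (SE 0.19) that edgeR did not call (adjusted p = 0.999). Of the macrophage markers, Lyz2 (5337 to 7797 FPKM), Cd68 (1024 to 1247 FPKM), Cd14, Csf1r, Itgam and Adgre1 were abundant in every library. Fcgr1 was at 7.35 to 10.9 FPKM in Cxcr4+ and 4.79 to 8.12 FPKM in Cxcr4- libraries. Mertk was low, at 1.33 to 1.79 FPKM in Cxcr4+ and 1.88 to 2.02 FPKM in Cxcr4- libraries. Neither was called by edgeR. Mrc1 was at most 0.0838 FPKM. Among markers of other cells, the 10 T and NK cell genes summed to at most 0.102 FPKM in Cxcr4+ and 0.105 FPKM in Cxcr4- libraries, with Trac, Cd8a, Nkg7, Ncr1 and Gzma at 0 in all. The 6 dendritic cell genes summed to at most 0.178 FPKM in Cxcr4+ and 0.145 FPKM in Cxcr4- libraries, with Ccr7 and Cd209a at 0. The 5 mast cell and basophil genes summed to at most 0.176 FPKM in Cxcr4+ and 0.140 FPKM in Cxcr4- libraries, and the 5 endothelial genes to at most 0.391 FPKM in Cxcr4+ and 0.257 FPKM in Cxcr4- libraries. The 9 neutrophil genes summed to 6.66 to 9.34 FPKM in Cxcr4+ and 7.13 to 10.2 FPKM in Cxcr4- libraries, most of it S100a8, with S100a9 and Camp at 0. The 6 B cell genes summed to 30.7 to 36.1 FPKM in Cxcr4+ and 34.7 to 35.4 FPKM in Cxcr4- libraries, almost all of it Ighm. The 8 fibroblast genes summed to 15.7 FPKM in Cxcr4+ 1, 2.90 FPKM in Cxcr4+ 2, 3.66 FPKM in Cxcr4+ 3 and 1.85 to 2.98 FPKM in Cxcr4- libraries. The 7 epithelial genes summed to 1.74 to 3.31 FPKM in Cxcr4+ and 3.43 to 6.00 FPKM in Cxcr4- libraries. What part these other cells had in the results was not tested. In RNA of sorted populations, fewer cells making a transcript and less of it per cell cannot be told apart. The libraries numbered 2 in both groups stood apart from the other 4: of 16031 tested genes, 26.2% were higher in both of them than in all others and 9.74% lower. Results are therefore also given without those libraries.

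The upstream sequences of 4 genes are shown because their transcripts behaved differently: Tnf and Tnfrsf1b were low in the libraries numbered 2, Tnfrsf1a was high there, and Il6 was close to the detection floor throughout. Each is the 250 bases before the gene start in RefSeq (build GRCm38.p6, not the GRCm39 of the expression table), written from 5′ to 3′. RefSeq entries were found for 7 of the 10 genes. Capitals mark matches on either strand to a loose NF-kappaB pattern (GGG, any 5 bases, then CC), to TGANTCA, the AP-1 pattern, or to TATAAA, the TATA box, and overlapping matches run together.
Tnf (chr17:35202008-35202257, reverse strand): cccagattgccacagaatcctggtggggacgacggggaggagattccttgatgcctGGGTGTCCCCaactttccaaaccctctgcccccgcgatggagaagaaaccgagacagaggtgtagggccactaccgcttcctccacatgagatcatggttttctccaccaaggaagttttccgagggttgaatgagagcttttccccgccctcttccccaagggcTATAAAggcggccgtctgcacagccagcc
Tnfrsf1b (chr4:145246871-145247120, reverse strand): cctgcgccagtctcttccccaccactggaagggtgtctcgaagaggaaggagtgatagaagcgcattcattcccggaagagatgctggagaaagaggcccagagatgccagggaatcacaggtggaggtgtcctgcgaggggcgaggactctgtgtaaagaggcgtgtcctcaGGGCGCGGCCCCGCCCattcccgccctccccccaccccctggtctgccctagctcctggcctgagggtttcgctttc
Tnfrsf1a (chr6:125349473-125349722, forward strand): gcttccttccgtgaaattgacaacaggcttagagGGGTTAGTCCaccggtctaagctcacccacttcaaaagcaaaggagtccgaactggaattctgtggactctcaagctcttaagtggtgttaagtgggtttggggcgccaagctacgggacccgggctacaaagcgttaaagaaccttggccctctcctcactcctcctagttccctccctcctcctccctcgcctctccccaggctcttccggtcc
Il6 (chr5:30012864-30013113, forward strand): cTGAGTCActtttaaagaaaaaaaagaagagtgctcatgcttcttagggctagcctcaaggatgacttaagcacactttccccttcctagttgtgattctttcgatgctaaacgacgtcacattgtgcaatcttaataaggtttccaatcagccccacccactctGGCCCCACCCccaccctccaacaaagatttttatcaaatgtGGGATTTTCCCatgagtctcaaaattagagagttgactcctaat
Tnf had 1 NF-kappaB match and a TATA box whose match began 29 bases before the start. Il6 had 3 NF-kappaB matches, of which 2 overlap, and 1 AP-1 match. Tnfrsf1b had 3 overlapping NF-kappaB matches in a GC-rich stretch, and Tnfrsf1a had 1. The 4 genes were picked after their values were seen, and Il1a, Il1rn and Tgfb1 also had entries. Tgfb1, which was low in the libraries numbered 2 as well, had 7 NF-kappaB matches. Il1a had 1 AP-1 match, 1 TATA box and 0 NF-kappaB matches. Of all 32851 RefSeq windows of this length, 45.8% held the NF-kappaB pattern, 6.75% the AP-1 pattern and 12.4% the TATA box, so the NF-kappaB pattern alone is common. A match is a description of these letters and not a bound site.

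Tnf (ENSMUSG00000024401) was the most abundant of the 10 transcripts. Its gene maps to chromosome 17, from 35418357 to 35420983 on the reverse strand (GRCm39, as for the other genes). Its level was 190, 104 and 209 FPKM in Cxcr4+ libraries 1, 2 and 3, against 157, 94.5 and 171 FPKM in Cxcr4- libraries 1, 2 and 3. The groups overlapped, and the lowest library of each group was the one numbered 2. Means were 167 ± 56.1 FPKM in Cxcr4+ and 141 ± 40.8 FPKM in Cxcr4- macrophages (SD, n = 3 each), a ratio of 1.19. A two-sided exact permutation test returned p = 0.5, where 3 against 3 libraries cannot go below 0.1. edgeR's quasi-likelihood test put the log2 fold change at 0.24 (SE 0.33, 95% interval -0.53 to 1.02), with a Benjamini-Hochberg adjusted p over all genes of 0.9997, so no difference was called. That interval is wide, and its upper end is a log2 fold change above 1. Behind these values were 8648 to 20158 counts per library.

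Much of the spread of Tnf followed the library number. The 4 libraries numbered 1 and 3 ranged from 157 to 209 FPKM, and their mean of 182 FPKM was 1.84 times the 99.0 FPKM of the libraries numbered 2. The coefficient of variation over the 6 libraries was 30.0%, higher than for 94.1% of the 6303 tested genes averaging 5 FPKM or more, whose median was 11.1%. Among libraries numbered 1 and 3 alone, both Cxcr4+ values of Tnf lay above both Cxcr4- values. The log2 fold change there was 0.27 (SE 0.084, 95% interval 0.061 to 0.49), but by edgeR its adjusted p was 0.672. The groups also did not overlap in these 4 libraries for 39.7% of all tested genes. Between the libraries numbered 2, the Cxcr4+ value was 1.10 times the Cxcr4- value. With those libraries as a block, edgeR gave Tnf a log2 fold change of 0.23 (SE 0.067, 95% interval 0.064 to 0.39) and an adjusted p of 0.452. These 2 intervals of Tnf are not adjusted for the number of genes. By edgeR, an unadjusted p under 0.05 was reached by 1139 of 16184 genes in libraries numbered 1 and 3 alone. With the block, 1485 of 16031 genes reached it. Leaving out single libraries moved the value widely, from 0.0018 without Cxcr4- 2 to 0.52 without Cxcr4+ 2, and none of these fits called Tnf.

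**Figure D1:**
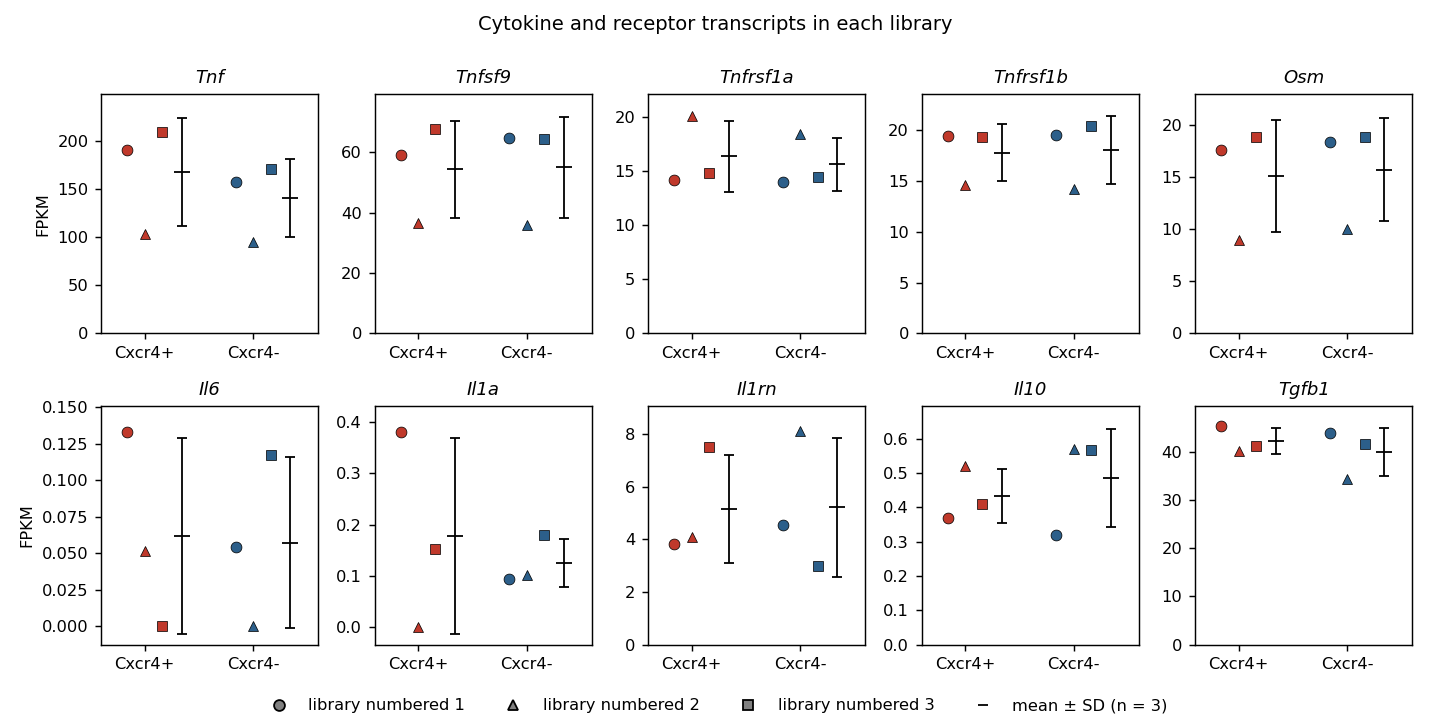
FPKM of the 10 transcripts in each library, Cxcr4+ in red and Cxcr4- in blue, with the group mean and SD at the right of each group (n = 3). Triangles are the libraries numbered 2, which are the lowest of their group for Tnf, Tnfsf9, Tnfrsf1b, Osm and Tgfb1 and the highest for Tnfrsf1a. They are also the highest for Il10, but in Cxcr4- only by 0.569 FPKM in library 2 against 0.568 FPKM in library 3. The groups overlap in every panel.

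Tnfsf9 (ENSMUSG00000035678) encodes the ligand of the costimulatory receptor Tnfrsf9 (4-1BB) on T and NK cells and ranked next to Tnf. Its gene is on chromosome 17, from 57412325 to 57414757 on the forward strand. Its level was 59.0, 36.6 and 67.6 FPKM in Cxcr4+ libraries 1, 2 and 3, against 64.6, 35.8 and 64.5 FPKM in Cxcr4- libraries 1, 2 and 3. The libraries numbered 2 were close to each other and well below the rest, and the groups overlapped. edgeR gave a log2 fold change of -0.023 (SE 0.32, 95% interval -0.77 to 0.72, adjusted p 0.9997), and -0.037 (95% interval -0.28 to 0.20) without the libraries numbered 2. Gm11110 overlaps Tnfsf9 on the opposite strand and had up to 606 counts. Whether strand was used in counting is not stated, so reads from the stretch that Gm11110 and Tnfsf9 share cannot be told apart. The receptor gene Tnfrsf9 was low, at 1.078 to 1.61 FPKM in Cxcr4+ and 1.0825 to 1.40 FPKM in Cxcr4- libraries.

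A list of 16 other ligands of the TNF family summed to 7.98 to 10.5 FPKM in Cxcr4+ and 8.31 to 8.46 FPKM in Cxcr4- libraries, below Tnf or Tnfsf9 alone in each library. Ltb, a subunit of membrane lymphotoxin whose gene lies 3076 bases from Tnf, made up most of this at 5.90 ± 0.529 FPKM (SD, n = 6). Lta, at 1158 bases from Tnf, averaged 0.510 ± 0.299 FPKM (SD, n = 6). Tnfsf4, Cd40lg, Cd70 and Tnfsf11 had 0 counts in every library.

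The receptors for Tnf were at similar levels and differed in opposite directions by library number. Tnfrsf1b (ENSMUSG00000028599; chromosome 4, 144940033 to 144973440, reverse strand) was at 19.4, 14.6 and 19.4 FPKM in Cxcr4+ libraries 1, 2 and 3, against 19.6, 14.2 and 20.4 FPKM in Cxcr4- libraries 1, 2 and 3. Tnfrsf1a (ENSMUSG00000030341; chromosome 6, 125326325 to 125338837, forward strand) was at 14.2, 20.1 and 14.8 FPKM in Cxcr4+ libraries 1, 2 and 3, against 13.955, 18.4 and 14.4 FPKM in Cxcr4- libraries 1, 2 and 3. In the libraries numbered 2, Tnfrsf1b was below and Tnfrsf1a above all 4 others, whichever the group. By edgeR the log2 fold change of Tnfrsf1b was -0.027 (SE 0.20, 95% interval -0.50 to 0.45, adjusted p 0.9997). That of Tnfrsf1a was 0.060 (SE 0.14, 95% interval -0.26 to 0.39, adjusted p 0.9997 by edgeR). Neither was called. Without the libraries numbered 2, both Cxcr4+ values of Tnfrsf1b lay below both Cxcr4- values (log2 fold change -0.050, SE 0.071; edgeR's adjusted p was 0.903), while Tnfrsf1a had a log2 fold change of 0.022 (SE 0.088). Tnf and Tnfrsf1b were the 2 of 9 tested members whose groups did not overlap in those 4 libraries. The same held for 39.7% of all tested genes.

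The ratio of Tnfrsf1b to Tnfrsf1a followed the library number. It was 1.37, 0.726 and 1.31 in Cxcr4+ libraries 1, 2 and 3, against 1.40, 0.768 and 1.41 in Cxcr4- libraries 1, 2 and 3. Tnfrsf1b exceeded Tnfrsf1a in the 4 libraries numbered 1 and 3, and Tnfrsf1a exceeded Tnfrsf1b in both libraries numbered 2. The difference of the mean log2 ratio, Cxcr4+ minus Cxcr4-, was -0.075 (two-sided exact permutation p = 0.5, n = 3 per group).

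Osm (ENSMUSG00000058755), an IL-6 family cytokine of activated macrophages, had a course like that of Tnf and Tnfsf9. Its gene is on chromosome 11 from 4186420 to 4191026, on the forward strand, 16531 bases from that of Lif, another cytokine of the family. Its level was 17.5, 8.94 and 18.8 FPKM in Cxcr4+ libraries 1, 2 and 3, against 18.3, 10.01 and 18.8 FPKM in Cxcr4- libraries 1, 2 and 3. The 4 libraries numbered 1 and 3 lay within 17.5 to 18.8 FPKM and were 1.94 times the libraries numbered 2 on average. edgeR gave a log2 fold change of -0.063 (SE 0.36, 95% interval -0.90 to 0.78, adjusted p 0.9997), and -0.039 (95% interval -0.26 to 0.19) in those 4 libraries. Lif had 3.15, 1.39 and 2.24 FPKM in Cxcr4+ libraries 1, 2 and 3 and 4.33, 1.51 and 3.33 FPKM in Cxcr4- libraries 1, 2 and 3. It too was lowest in the libraries numbered 2.

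Il6, which drives the acute phase response through Stat3, and Il1a, an interleukin 1 that acts as an alarm signal, were close to or below detection. Low counts in this table often come as multiples of 4, so a count is not always 1 fragment, and the detection floor was set at 3 fragments, or 12 counts, per library. This floor covers counting error only. Il6 (ENSMUSG00000025746; chromosome 5, 30218112 to 30224979, forward strand) had 21, 8 and 0 counts in Cxcr4+ libraries 1, 2 and 3, against 8, 0 and 15 counts in Cxcr4- libraries 1, 2 and 3. In 1 library of each group it was above the floor. A count of 0 allows up to 0.0814 FPKM in Cxcr4+ 3 and 0.0858 FPKM in Cxcr4- 2. Over all 6 libraries Il6 did not pass the filter on low counts and was not tested. In libraries numbered 1 and 3 alone it passed, with a log2 fold change of -0.35 (SE 1.62, 95% interval -4.46 to 3.77). Its adjusted p there was 0.977 by edgeR. Il1a (ENSMUSG00000027399; chromosome 2, 129141530 to 129151892, reverse strand) had 48, 0 and 18 counts in Cxcr4+ libraries 1, 2 and 3, against 11, 12 and 19 counts in Cxcr4- libraries 1, 2 and 3. Its log2 fold change of 0.49 had an SE of 1.18 (95% interval -2.25 to 3.24, adjusted p 0.9997 by edgeR), so neither direction nor size could be told at this depth. Gm14023, on the opposite strand, overlaps Il1a with up to 26 counts, and reads from the stretch that they share cannot be told apart either. Il1b, the other interleukin 1, whose gene lies 54598 bases from Il1a, was also low. It had 0.651, 0 and 0.133 FPKM in Cxcr4+ libraries 1, 2 and 3 and 0.254, 0 and 0.130 FPKM in Cxcr4- libraries 1, 2 and 3.

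Il1rn (ENSMUSG00000026981), whose product occupies the interleukin 1 receptor without signalling, was present in every library. Its gene is on chromosome 2 from 24226865 to 24241506, on the forward strand. Its level was 3.83, 4.08 and 7.502 FPKM in Cxcr4+ libraries 1, 2 and 3, against 4.54, 8.13 and 2.98 FPKM in Cxcr4- libraries 1, 2 and 3. The highest values were in Cxcr4- 2 and Cxcr4+ 3, so that neither group nor library number ordered them. Its coefficient of variation, 40.9%, exceeded that of 97.4% of the tested genes averaging 5 FPKM or more. The log2 fold change was -0.0034 (SE 0.39, 95% interval -0.90 to 0.90, adjusted p 0.9997 by edgeR). Without the libraries numbered 2 it was 0.58 (SE 0.37, 95% interval -0.37 to 1.52, adjusted p 0.779 by edgeR). In the 5 libraries with Il1a counts, Il1rn exceeded Il1a by 10.1 to 49.1 times in Cxcr4+ and 16.5 to 79.3 times in Cxcr4- libraries. These ratios rest on 11 to 48 counts of Il1a, and the difference of their mean log2 was -0.84 (two-sided exact permutation p = 0.6, n = 2 and 3).

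Of the regulatory cytokines, Tgfb1 was abundant while Il10 was scarce. Tgfb1 (ENSMUSG00000002603; chromosome 7, 25386427 to 25404502, forward strand) was at 45.4, 40.2 and 41.1 FPKM in Cxcr4+ libraries 1, 2 and 3, against 43.9, 34.2 and 41.5 FPKM in Cxcr4- libraries 1, 2 and 3. Its coefficient of variation of 9.37% was the lowest of the 10 genes. That was higher than for 38.3% of the tested genes averaging 5 FPKM or more, whose median was 11.1%. edgeR gave it a log2 fold change of 0.072 (SE 0.14, 95% interval -0.25 to 0.40, adjusted p 0.9997), and 0.0087 (95% interval -0.21 to 0.23) without the libraries numbered 2. Il10 (ENSMUSG00000016529; chromosome 1, 130947582 to 130952711, forward strand), which dampens macrophage activation, had 31, 41 and 32 counts, or 0.368, 0.521 and 0.411 FPKM, in Cxcr4+ libraries 1, 2 and 3. It had 24, 42 and 39 counts, or 0.320, 0.569 and 0.568 FPKM, in Cxcr4- libraries 1, 2 and 3. All 6 values were above the floor, and the groups overlapped. The log2 fold change of Il10 was -0.15 (SE 0.40, 95% interval -1.09 to 0.79, adjusted p 0.9997 by edgeR). Tnf exceeded Il10 by 517, 199 and 509 times in Cxcr4+ libraries 1, 2 and 3 and by 492, 166 and 301 times in Cxcr4- libraries 1, 2 and 3. The difference of the mean log2 ratio was 0.36 (two-sided exact permutation p = 0.5, n = 3 per group).

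Ordered by mean FPKM over the 6 libraries, Tnf came first at 154 ± 46.2, then Tnfsf9 at 54.7 ± 14.6, Tgfb1 at 41.1 ± 3.85, Tnfrsf1b at 17.9 ± 2.77, Tnfrsf1a at 15.99 ± 2.62, Osm at 15.4 ± 4.62, Il1rn at 5.18 ± 2.12, Il10 at 0.459 ± 0.108, Il1a at 0.152 ± 0.128 and Il6 at 0.0594 ± 0.0563 FPKM (SD, n = 6). In each library Tnf lay above every other member. The ranges of Tnfsf9 and Tgfb1 overlapped, as did those of Tnfrsf1b, Tnfrsf1a and Osm, those of Il10 and Il1a, and those of Il1a and Il6, so these neighbours were not separated by their spread. Between Tgfb1 and Tnfrsf1b, between Osm and Il1rn, and between Il1rn and Il10 the ranges did not overlap.

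Of the 9 members tested, 0 passed an adjusted p under 0.05 by edgeR, where 0.0312% of all tested genes did, 0.0125% higher and 0.0187% lower in Cxcr4+ (5 of 16031). By DESeq2 0 of the 9 passed, against 0.393% of all tested genes. At an unadjusted p under 0.05, 0 members passed by edgeR, against 4.85% of all tested genes, and 0 members had groups that did not overlap, against 10.4%. The median size of the log2 fold change was 0.063 over the 9 members, 0.14 over all tested genes and 0.091 over the 6303 tested genes averaging 5 FPKM or more, as 7 of the members do. By sign, 4 members were positive and 5 negative.

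**Figure D2:**
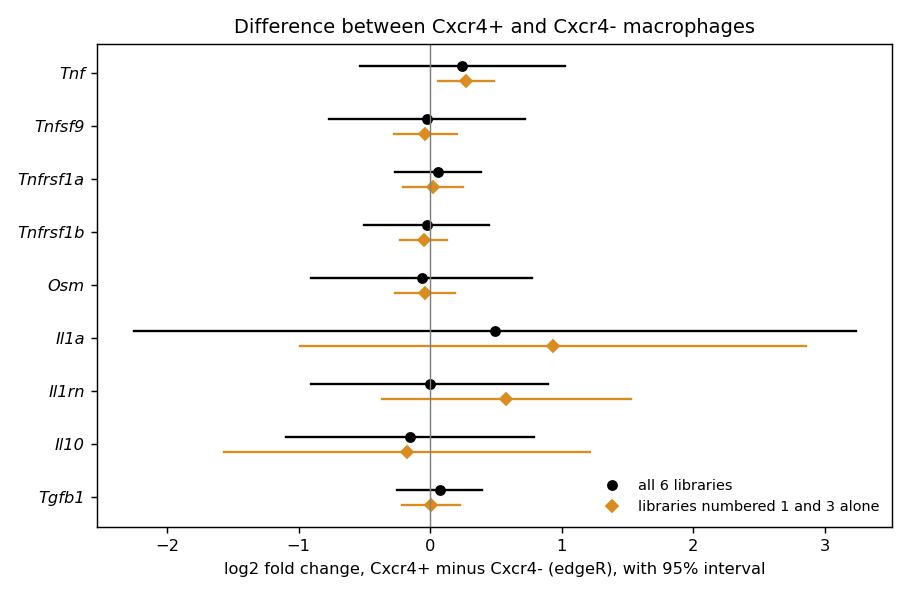
Log2 fold change, Cxcr4+ minus Cxcr4-, of the 9 tested members with its 95% interval from edgeR, for all 6 libraries (black circles) and for the libraries numbered 1 and 3 alone (orange diamonds). Intervals of Tnf, Tnfsf9, Osm and Tnfrsf1b narrow without the libraries numbered 2 while the estimates hardly move, and Tnf alone then has an interval above 0, from 0.061 to 0.49, at an adjusted p of 0.672 by edgeR.

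By library number the members separated more clearly. Both libraries numbered 2 lay below the other 4 for 5 of the 9 tested members, Tnf, Tnfsf9, Osm, Tnfrsf1b and Tgfb1, where 9.74% of all tested genes did so. They lay above for 1, Tnfrsf1a, against 26.2%. Among the genes averaging 5 FPKM or more, the shares were 12.0% below and 33.1% above. These are descriptions of 2 libraries that share only a number in their labels, and no test was made on them. Early response genes listed as signs of handling were also lowest in both libraries numbered 2. Fos and Jun were highest in Cxcr4- 1, and Tnf was highest in Cxcr4+ 3. Fos had 275, 164 and 207 FPKM in Cxcr4+ libraries 1, 2 and 3 and 291, 188 and 244 FPKM in Cxcr4- libraries 1, 2 and 3. Jun had 255, 144 and 212 FPKM in Cxcr4+ libraries 1, 2 and 3 and 268, 149 and 226 FPKM in Cxcr4- libraries 1, 2 and 3. The heat shock gene Hspa1a had 14.8, 3.21 and 6.90 FPKM in Cxcr4+ libraries 1, 2 and 3 and 19.2, 4.06 and 15.4 FPKM in Cxcr4- libraries 1, 2 and 3. Of the 7 genes of that list, 5 were lowest in both libraries numbered 2: Fos, Jun, Egr1, Hspa1a and the mitochondrial mt-Co1. Their part in the spread of Tnf was not tested. The mitochondrial mt-Atp8 of the same list did not overlap between groups, as for 10.4% of all tested genes. It was at 9466.4 to 13253.5 FPKM in Cxcr4+ and 7052 to 7932 FPKM in Cxcr4- libraries. Its log2 fold change was 0.63 (SE 0.13), at an adjusted p of 0.678 by edgeR. For mt-Nd1 the groups overlapped, at 0.073 (SE 0.098). Of the 9 macrophage markers, Csf1r and Cd14 lay above the other 4 libraries in both libraries numbered 2, Adgre1 lay below (16.7 FPKM in Cxcr4+ 2 and 18.8 FPKM in Cxcr4- 2, against 21.1 to 22.7 FPKM in the others), and the other 6 did neither.

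**Figure D3:**
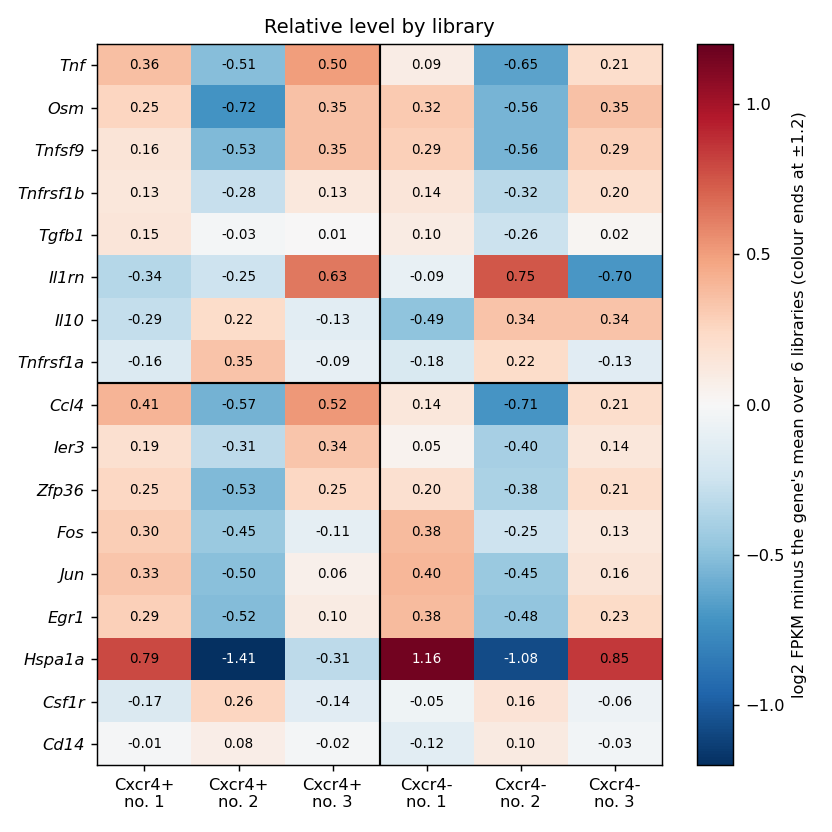
Log2 FPKM of each gene in each library minus the gene's mean over the 6 libraries, for the 8 members with counts in every library (above the line) and for early response, handling and macrophage genes (below it). Both columns numbered 2 are blue for Tnf, Osm, Tnfsf9, Tnfrsf1b, Ccl4, Zfp36, Fos, Jun and Egr1 and red for Tnfrsf1a and Csf1r, while Il1rn follows no column.

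Likeness to Tnf over the 6 libraries was measured by Pearson's r of log2(FPKM + 1) among 5571 genes. The highest were Ccl4 (0.999), Ier3 (0.997), Irak1bp1 (0.997), Ly86 (0.996) and Phf11d (0.995). Ccl4 is an inflammatory chemokine and Ier3 an early response gene. Those most like Tnfrsf1b were Sde2 (0.997), Map3k8 (0.993), Hinfp (0.992), Cd274 (0.992) and Bcl2l1 (0.990). Map3k8 is a kinase upstream of ERK in macrophages, Cd274 the checkpoint ligand PD-L1 and Bcl2l1 a survival factor. With Tnf, the r was 0.947 for Tnfsf9, 0.936 for Osm, 0.933 for Tnfrsf1b, 0.754 for Tgfb1, -0.24 for Il1rn, -0.59 for Il10 and -0.88 for Tnfrsf1a. These r values share the step between the libraries numbered 2 and the rest, and all 10 of the genes most like Tnf or Tnfrsf1b were lowest in both libraries numbered 2.

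The surrounding pathways were described with 10 gene lists holding 166 distinct tested genes, of which 0 passed an adjusted p under 0.05 by edgeR. At an unadjusted p under 0.05 there were 10, or 6.02%, against 4.85% of all tested genes. Groups did not overlap for 19, or 11.4%, against 10.4%. The median log2 fold change was -0.0070 over the 166 genes and 0.00041 over all tested genes. Unless said otherwise, the genes named from a list are those of highest level and not those with the largest difference, with the mean over 6 libraries.

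In the list for release of Tnf and signalling from its receptors, 0 of 36 tested genes passed in either direction, with a median log2 fold change of -0.025. Nfkbia, the NF-kappaB inhibitor, averaged 251 ± 8.18 FPKM in Cxcr4+ and 279 ± 21.2 FPKM in Cxcr4- libraries (SD, n = 3 each). Tnip1, a partner of the deubiquitinase Tnfaip3, had 42.7 ± 2.79 FPKM and a log2 fold change of -0.12 (SE 0.10). The caspase 8 regulator Cflar had 27.0 ± 3.38 FPKM and -0.11 (SE 0.17), and the linear ubiquitin ligase subunit Rbck1 had 23.3 ± 1.93 FPKM and -0.15 (SE 0.081). The sheddase gene Adam17, outside the naming rule but the step that frees Tnf, averaged 11.1 ± 1.18 FPKM in Cxcr4+ and 11.2 ± 0.136 FPKM in Cxcr4- libraries (SD, n = 3 each). Timp3, an inhibitor of Adam17 named after its values were seen, had the largest log2 fold change of the list, 2.42 (SE 0.92). It had 1.25, 0.293 and 0.494 FPKM in Cxcr4+ libraries 1, 2 and 3 and 0.0240, 0.317 and 0.0482 FPKM in Cxcr4- libraries 1, 2 and 3. Its highest library was Cxcr4+ 1, which also had the most fibroblast transcripts. Among Cxcr4- libraries Timp3 was highest in Cxcr4- 2, where the fibroblast genes summed to 1.98 FPKM, against 2.98 FPKM in Cxcr4- 3. A link between Timp3 and these transcripts was not tested.

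Of the early NF-kappaB targets, 0 of 19 tested genes passed and the median was -0.0050. Both libraries numbered 2 lay below the other 4 for 9 of them, against 9.74% of all tested genes. They lay above for 2, against 26.2%. The chemokine gene Ccl3 averaged 2931 ± 668 FPKM in Cxcr4+ and 2558 ± 593 FPKM in Cxcr4- libraries (SD, n = 3 each), with a log2 fold change of 0.19 (SE 0.25). Ccl4 averaged 518 ± 186 FPKM in Cxcr4+ and 432 ± 136 FPKM in Cxcr4- libraries, with 0.26 (SE 0.36). Ier3 averaged 267 ± 59.0 FPKM in Cxcr4+ and 240 ± 45.0 FPKM in Cxcr4- libraries, with 0.14 (SE 0.23). Nfkbia was lowest of its group in the library numbered 2, at 244 FPKM in Cxcr4+ 2 and 256 FPKM in Cxcr4- 2, but Cxcr4- 2 was not below all 4 libraries numbered 1 and 3.

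Of the regulators of cytokine mRNA, 0 of 15 passed, with a median of -0.029. Zfp36, which speeds decay of Tnf mRNA, averaged 149 ± 41.4 FPKM in Cxcr4+ and 149 ± 32.1 FPKM in Cxcr4- libraries (SD, n = 3 each). It was at 101 FPKM in Cxcr4+ 2 and 112 FPKM in Cxcr4- 2, against 166 to 173 FPKM in the other 4 libraries. Zfp36l2, of the same family, had 120 ± 21.8 FPKM and a log2 fold change of -0.13 (SE 0.22). The RNA-binding protein gene Ybx1 had 391 ± 15.1 FPKM and -0.029 (SE 0.083). The groups did not overlap for the decay helicase gene Upf1, at 30.0, 36.7 and 32.2 FPKM in Cxcr4+ libraries 1, 2 and 3 and 39.1, 38.2 and 38.3 FPKM in Cxcr4- libraries 1, 2 and 3, but its log2 fold change of -0.24 (SE 0.086) had an adjusted p of 0.998 by edgeR.

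Among receptors and signalling of the IL-6 family 0 of 13 passed, with a median of -0.034. The kinase genes Jak1 and Tyk2 had log2 fold changes of -0.034 (SE 0.074) and -0.044 (SE 0.094). Stat3, the transcription factor that the IL-6 receptor activates, did not overlap between groups, at 9.66 ± 0.223 FPKM in Cxcr4+ and 10.8 ± 0.326 FPKM in Cxcr4- libraries (SD, n = 3 each). Its log2 fold change was -0.16 (SE 0.073) with an adjusted p of 0.999 by edgeR. The feedback inhibitor Socs3 had 30.6, 15.96 and 30.6 FPKM in Cxcr4+ libraries 1, 2 and 3 and 28.3, 16.9 and 26.7 FPKM in Cxcr4- libraries 1, 2 and 3, again lowest in the libraries numbered 2. Osmr, the receptor subunit for Osm, was at most 0.0755 FPKM, whereas the shared subunit Il6st averaged 8.07 ± 0.844 FPKM (SD, n = 6); both lie outside the naming rule.

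In the IL-1 list 0 of 15 tested genes passed, with a median of 0.027. The adaptor kinase Irak2 did not overlap between groups, at 41.8, 27.8 and 29.0 FPKM in Cxcr4+ libraries 1, 2 and 3 and 27.6, 21.3 and 27.3 FPKM in Cxcr4- libraries 1, 2 and 3. Its log2 fold change of 0.37 (SE 0.21) was not called. The inhibitory Irak3 had 20.7 ± 4.36 FPKM and a log2 fold change of 0.027 (SE 0.21). Tollip had 15.6 ± 0.805 FPKM and -0.0094 (SE 0.11), and Hax1, which binds interleukin 1 alpha, had 62.6 ± 11.9 FPKM and -0.014 (SE 0.18). The signalling receptor gene Il1r1, chosen after its values were seen, was low at 0.246, 0.233 and 0.190 FPKM in Cxcr4+ libraries 1, 2 and 3, against 0.411, 0.371 and 0.431 FPKM in Cxcr4- libraries 1, 2 and 3. Its groups did not overlap. The log2 fold change was -0.86 (SE 0.23), at an adjusted p of 0.953 by edgeR.

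Of 9 genes of the IL-10 receptor and its action 0 passed (median -0.0081). The haem oxygenase gene Hmox1 had 744 ± 63.3 FPKM and a log2 fold change of 0.045 (SE 0.079). Nfil3, a transcription factor, averaged 23.7 ± 2.83 FPKM in Cxcr4+ and 27.8 ± 0.754 FPKM in Cxcr4- libraries (SD, n = 3 each), which did not overlap and were not called (-0.24, SE 0.13). Bcl3 had 11.1 ± 2.04 FPKM and -0.044 (SE 0.23), and Sbno2 had 7.46 ± 0.525 FPKM and -0.12 (SE 0.090). Of 25 tested genes of Tgfb1 storage, activation and response 0 passed (median 0.018). Nrros, which holds latent Tgfb1 on myeloid cells, had 9.72 ± 1.72 FPKM and a log2 fold change of 0.15 (SE 0.17). The processing protease gene Furin had 14.8 ± 1.63 FPKM and -0.18 (SE 0.13), Smad4 had 10.8 ± 0.760 FPKM and -0.084 (SE 0.11) and the repressor gene Tgif1 had 18.3 ± 1.55 FPKM and -0.012 (SE 0.13). The largest log2 fold change of the Tgfb1 list was 3.59 (SE 1.35) for the anchor gene Lrrc32, named after its values were seen. It rests on 0.386, 0.0752 and 0.0817 FPKM in Cxcr4+ libraries 1, 2 and 3 and 0, 0.0431 and 0 FPKM in Cxcr4- libraries 1, 2 and 3, and was highest in Cxcr4+ 1.

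Further TNF family receptors had 0 of 18 past the threshold (median -0.0042). Tnfrsf26 had 31.9 ± 3.81 FPKM and a log2 fold change of -0.073 (SE 0.10). Tnfrsf12a, which encodes the Tweak receptor, had 13.5 ± 4.24 FPKM and 0.16 (SE 0.36). The lymphotoxin receptor gene Ltbr had 9.75 ± 1.16 FPKM and 0.0089 (SE 0.15), and the death receptor gene Fas 8.96 ± 2.40 FPKM and -0.017 (SE 0.32). Of 6 tested ligands 0 passed (median -0.083). Ltb had a log2 fold change of 0.12 (SE 0.14), Lta -0.28 (SE 0.59), Tnfsf12 0.42 (SE 0.54) and Tnfsf13 -0.79 (SE 0.88), the last at 0.364 ± 0.236 FPKM. Other cytokines had 0 of 15 tested genes past the threshold (median 0.015). Mif had 713 ± 75.6 FPKM and -0.15 (SE 0.11), Ebi3, a subunit of IL-27 and IL-35, had 32.9 ± 2.92 FPKM and 0.0088 (SE 0.15), and the neutrophil growth factor gene Csf3 had 27.7 ± 2.97 FPKM and 0.075 (SE 0.16). Il18 had 16.2, 18.3 and 18.5 FPKM in Cxcr4+ libraries 1, 2 and 3 and 12.3, 17.1 and 11.8 FPKM in Cxcr4- libraries 1, 2 and 3, with a log2 fold change of 0.36 (SE 0.15) that was not called (adjusted p 0.999 by edgeR). Its groups overlapped through Cxcr4- 2. Il12a, Il12b, Il24, Il7, Il13, Il17a and Ifng had 0 counts in all 6 libraries.

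**Figure D4:**
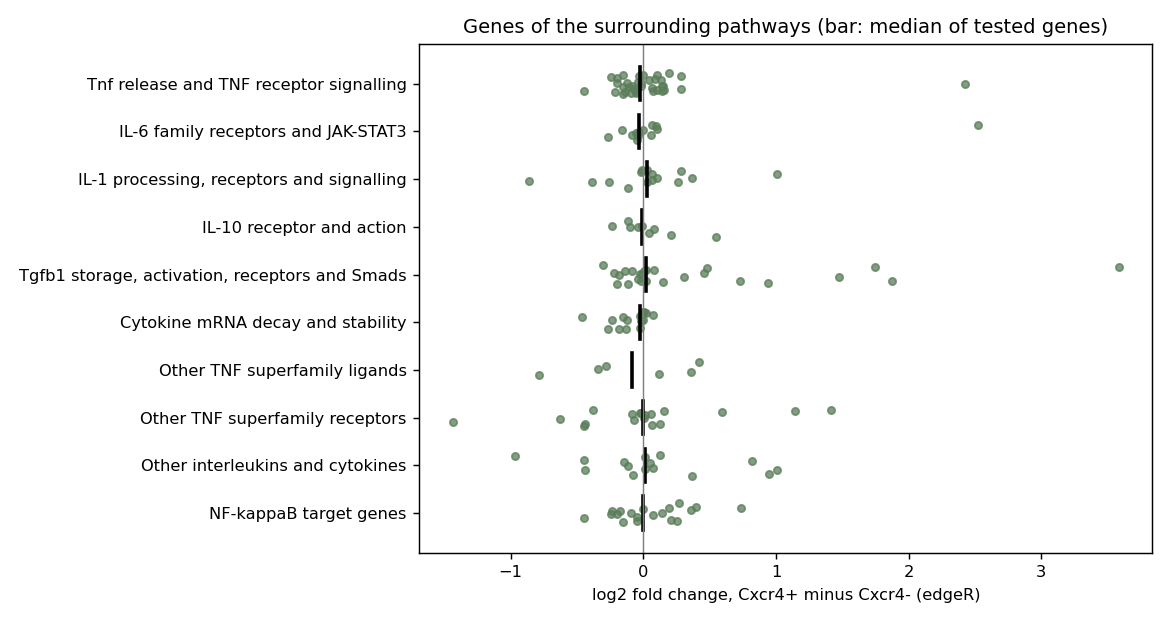
Log2 fold change, Cxcr4+ minus Cxcr4-, of each tested gene in 10 pathway lists (points) with the median of the list (bar). Medians run from -0.083 to 0.027, and the points farthest to the right are genes of very low level, Timp3, Osmr and Lrrc32.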

How the data were processed

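The submitters' processing notes name cutadapt, HISAT2, StringTie and the build GRCm39, without versions. The annotation release and the use of strand are not stated. The authors deposited 1 table with 12 value columns, an estimated count and an FPKM for each of the 6 libraries, per the file headers. Counts as deposited are expected (estimated) counts in whole numbers, and 43.2% of values from 1 to 20 were multiples of 4. The deposited FPKM adjust for gene length and library size, and their minimum of 0.0001, which stands where the count is 0, was read as 0.

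The quasi-likelihood test of edgeR 4.0.16 (R 4.3.3, earlier dispersion method) was run on the counts, scaled by TMM and filtered by filterByExpr at a count of 10 and a total of 15, on group alone. This left 16031 genes, among them 9 of the 10 members for the Benjamini-Hochberg adjustment. The SE is the size of the log2 fold change over the square root of F. Alternatives were DESeq2 1.42.0, limma 3.58.1 on log2(FPKM + a pseudocount), other scalings and filters, counts divided by 4, blocks and left-out libraries. The procedure was tested on simulated data. Members, lists and alternatives were chosen with earlier results of these data known. The naming rule took the members, up to 4 genes of highest mean FPKM per list, any list gene past the threshold, and the 5 genes most like Tnf and like Tnfrsf1b with a mean of 5 FPKM or more, without predicted genes and pseudogenes. Names beyond it were added after values were seen. Figures were drawn with matplotlib 3.10.9.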

Additional observations from a re-analysis of the deposited data

How the results depend on the processing

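None of the 9 tested members was called in any of the 151 combinations of member and setting, which leave out Il6. In 1 of them, Il1a by DESeq2, no adjusted p was given. The smallest adjusted p was 0.452, for Tnf where a block held the libraries numbered 2. Of these values, 23 changed sign. The number of genes past the threshold, 5 by edgeR, was 63 by DESeq2, 2 by limma-trend on log2(FPKM + 1) and 1 with a pseudocount of 5. It was 1 to 9 with single libraries left out: 9 without Cxcr4+ 2, and 1 without Cxcr4+ 1, Cxcr4+ 3 or Cxcr4- 1. The replicate block gave 0 genes, against 1495 at an unadjusted p under 0.05. No label says that the numbers mark pairs, so they were not taken as pairs. Same-numbered libraries correlated at 0.0383, 0.141 and 0.0451 in their deviations from the group means. Differently numbered libraries of the 2 groups correlated at -0.089 to 0.0522. Cxcr4+ 1 and Cxcr4- 3 correlated best with each other (0.0522), the other 4 libraries with their own number.

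Signs changed for Il1a, whose 0.49 rests on few counts, and for values near 0. Il1a was -0.35 with the replicate block and -0.18 with the libraries numbered 2 as a block. Il1rn was 0.58 in libraries numbered 1 and 3 alone, 0.062 with the libraries numbered 2 as a block, 0.0067 with the replicate block, and 0.028, 0.016 and 0.00093 by limma-trend with pseudocounts of 0.1, 1 and 5. Leaving out single libraries gave log2 fold changes of 0.0018 to 0.52 for Tnf, -0.073 to 0.16 for Tnfrsf1a, -0.20 to 0.13 for Tnfrsf1b, -0.72 (without Cxcr4+ 1) to 1.076 for Il1a, -0.41 to 0.41 for Il1rn, -0.33 to 0.23 for Osm, -0.36 to -0.012 for Il10, -0.057 to 0.18 for Tgfb1 and -0.28 to 0.22 for Tnfsf9. The log2 ratios moved from -0.37 to 0.22 for Tnfrsf1b over Tnfrsf1a, from -1.99 to 0.30 for Il1rn over Il1a and from -0.041 to 0.82 for Tnf over Il10. The cause was not tested. Il10 and Il1a did not pass the filter with counts divided by 4, so they have no value there. Il6, Il1a and Il10 are limited by depth, at no more than 48 counts in a library.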
